A study of Mus musculus with 9 samples.

Results

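The genes described here encode the proton pump that acidifies the lysosome and the proteins that build and load the autophagosome. They are the protein-coding mouse genes (GRCm38 symbols, GENCODE M21 gene types) whose symbol starts with Atp6v, or with Atg and a digit, together with 14 named genes: Map1lc3a, Map1lc3b, Gabarap, Gabarapl1, Gabarapl2, Becn1, Ulk1, Ulk2, Sqstm1, Optn, Tfeb, Tfe3, Lamp1 and Lamp2. The rule found 56 genes among the 54532 gene IDs counted, and it used no measured value. RNA was measured by sequencing of polyadenylated transcripts in 9 libraries of mouse striatum, the input nucleus of the basal ganglia: 3 of mice without cGAS (cGAS KO), 3 of mice without STING (STING KO) and 3 of wild-type mice (WT). Both knockouts were made with CRISPR-Cas9 on a C57BL/6J background, and the series describes the knockout brains as taken after ischemic stroke. Whether the WT mice, or every animal, had a stroke is unstated in the sources used here, so stroke may or may not be shared by the groups. cGAS senses DNA in the cytosol and makes a cyclic dinucleotide, and STING is the receptor for it. The sources used here state no age, sex, time after stroke or edited exon. Whether any of the 9 libraries came from an uninjured animal is therefore not known. The labels do not say that the libraries of a group come from separate animals, so p-values cover only the spread from library to library, which may be technical.

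The vacuolar proton pump (V-ATPase) is a rotary motor. Its V1 sector in the cytosol splits ATP, and the turning of a central stalk drives protons through the V0 sector in the membrane. In macroautophagy the ULK kinase complex starts a membrane sheet, a phosphatidylinositol kinase complex with Beclin 1 marks it, ATG9 and ATG2 supply its lipids, and a ubiquitin-like conjugation system attaches LC3 and GABARAP proteins to it. The finished vesicle fuses with a lysosome, whose acid keeps its hydrolases active. Neurons depend on both systems, and also use the V-ATPase to load synaptic vesicles with transmitter. STING is itself tied to these genes in cell biology, since its activation is known to trigger attachment of LC3 to membranes through the V-ATPase and ATG16L1.

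The transcription factors TFEB and TFE3 bind an E-box with the core CACGTG in promoters of lysosomal genes, and 4 promoters of the set are shown for that reason. RefSeq windows of 300 bases on GRCm38.p6, from 250 bases before to 50 bases after the annotated start, were found for 45 of the 56 genes. The core CACGTG, which reads the same on both strands, was present in 9 of the 45 genes (20.0%) and in 8.91% of 17492 protein-coding genes with a window. The longer TCACGTGA, which contains the core and is likewise the same on both strands, was present in 4 of them (8.89%) and in 1.41% of protein-coding genes. The full palindromic CLEAR element, which adds 1 base at each end, was in 0 of the 45 and in 0.469% of protein-coding genes. The 9 genes with the core were Lamp1, Atp6v0b, Atp6v0d1, Atp6v0e, Atp6v1a, Atg3, Atg5, Atg7 and Atg14, and those with TCACGTGA were Atp6v0d1, Atp6v0e, Atp6v1a and Atg3. These are matches of letters, not measured sites.

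Of the promoters shown, Lamp1 (chr8:13158911-13159210, plus strand) held 4 cores, the first starting 61 bases before the RefSeq start, and Atp6v0b (chr4:117887280-117887579, minus strand) held 2, the first 36 bases before it. In Atp6v0d1 (chr8:105566015-105566314, minus strand) TCACGTGA started 4 bases before the start. In Atg3 (chr16:45158579-45158878, plus strand) it started 72 bases before, and a further core stands upstream of it in lower case. Each is written 5′ to 3′ on the gene's strand. Capitals mark CACGTG in the first pair and TCACGTGA in the second pair.
Lamp1: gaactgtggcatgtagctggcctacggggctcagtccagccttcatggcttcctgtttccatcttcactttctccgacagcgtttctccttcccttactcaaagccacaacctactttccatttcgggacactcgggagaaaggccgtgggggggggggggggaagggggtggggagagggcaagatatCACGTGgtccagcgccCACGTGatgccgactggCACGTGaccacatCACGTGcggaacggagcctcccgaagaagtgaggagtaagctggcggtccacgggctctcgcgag
Atp6v0b: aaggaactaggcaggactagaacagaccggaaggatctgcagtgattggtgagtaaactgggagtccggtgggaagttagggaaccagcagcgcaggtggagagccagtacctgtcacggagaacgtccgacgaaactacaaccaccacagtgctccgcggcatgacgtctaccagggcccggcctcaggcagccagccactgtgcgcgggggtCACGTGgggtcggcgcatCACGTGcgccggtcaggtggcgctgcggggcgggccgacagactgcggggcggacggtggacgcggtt
Atp6v0d1: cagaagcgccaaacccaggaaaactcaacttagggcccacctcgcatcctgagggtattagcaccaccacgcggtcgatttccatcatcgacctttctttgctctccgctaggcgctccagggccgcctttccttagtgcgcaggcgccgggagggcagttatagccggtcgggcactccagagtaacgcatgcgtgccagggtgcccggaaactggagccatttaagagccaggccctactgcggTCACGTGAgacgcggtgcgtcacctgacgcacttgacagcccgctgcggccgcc
Atg3: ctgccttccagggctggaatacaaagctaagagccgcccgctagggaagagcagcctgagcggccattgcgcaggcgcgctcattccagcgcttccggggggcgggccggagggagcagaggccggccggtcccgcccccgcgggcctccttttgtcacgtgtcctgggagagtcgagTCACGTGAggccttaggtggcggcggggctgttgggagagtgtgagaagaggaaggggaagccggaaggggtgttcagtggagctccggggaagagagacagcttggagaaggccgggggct

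Library totals ranged from 14129021 to 21286775 counts. Each group held 1 library that stood apart: replicate 2 of cGAS KO, replicate 2 of STING KO and replicate 3 of WT had 2280 to 4723 genes with 1 to 9 counts, and the other 6 libraries 7096 to 7927. These 3 are termed libraries of low complexity. Counts of genes and some of the fold changes are given with and without them. The labelled tissue was checked by 10 markers of medium spiny neurons, whose summed level was 8340 to 10207 CPM in 8 libraries and 4953 CPM in WT replicate 3. Choroid plexus markers summed to 2727 CPM in WT replicate 1 and to at most 453 CPM elsewhere. Cgas was at 0.262 to 1.10 CPM in cGAS KO, 1.04 to 1.55 CPM in STING KO and 1.40 to 3.18 CPM in WT. Sting1 was at 1.66 to 2.75 CPM in cGAS KO, 1.04 to 2.17 CPM in STING KO and 1.34 to 4.06 CPM in WT. In the knockout of the gene itself, only Cgas was separated from WT, and its cGAS KO range overlapped that of STING KO. In bulk tissue, fewer cells of a type and less RNA per cell cannot be told apart.

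Levels below are in CPM, counts scaled to library size with TMM factors. Between genes they are compared only per kb of annotated exon (all exons of a gene in GENCODE M21 merged), as the mean over the 9 libraries. Of the 56 genes, 49 passed the filter on low counts and were tested, among 17821 genes. The other 7 were near or at 0: Atp6v1g3 and Atp6v1fnb had no count in any library, which allows up to 0.135 to 0.226 CPM (3 counts) at these depths, for counting error only. Atp6v1fnb is a neighbour of Atp6v1f and not a pump subunit. Atp6v1e2, the testis form of subunit E, had 6 counts over all 9 libraries, Atp6v0a4, the kidney form of subunit a, had 13, and Atp6v1b1, the subunit B of acid-secreting epithelia, had 30. Atp6v0d2, the subunit d of osteoclasts and kidney, had 9 counts, all in WT replicate 3. Atg4a-ps, a copy of Atg4a annotated as protein-coding, had 38. The pseudogene Atp6v0c-ps2, which the rule leaves out, was at 0.212 to 1.67 CPM.

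Gabarapl1 (ENSMUSG00000030161, chr6:129533160-129542346, plus strand), which encodes a GABARAP protein of the autophagosome membrane, was highest, at 145 CPM per kb (76.8 to 179 over libraries), the 99.4th percentile of protein-coding genes. Lamp1, an abundant glycoprotein of the lysosomal membrane, followed at 90.2 CPM per kb, and Lamp2, its relative, an isoform of which is the receptor of chaperone-mediated autophagy, was at 9.06 CPM per kb. Among the pump genes Atp6v0e2 (subunit e, brain form) was at 79.0 CPM per kb, Atp6v0a1 (subunit a, neuronal form) at 76.8, Atp6v1b2 (subunit B of the ATP-splitting head) at 70.1 and Atp6v0d1 (subunit d, which joins the ring to the stalk) at 69.5. Sqstm1, which encodes the cargo receptor p62, was at 69.0 CPM per kb, while optineurin (Optn), another cargo receptor, was at 2.37.

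The initiation genes were led by Atg13, the adaptor of the ULK complex, at 25.5 CPM per kb, with the kinases Ulk2 at 24.7 and Ulk1 at 12.4 and the subunit Atg101 at 8.36. Becn1, which encodes Beclin 1, was at 9.0 CPM per kb, and Atg14, its partner in the kinase complex, at 5.59. Atg9a, the lipid scramblase carried on autophagy vesicles, was at 17.4 CPM per kb, and the lipid transfer genes Atg2a and Atg2b at 11.3 and 6.14. The conjugation genes spanned 2.39 CPM per kb for Atg16l2 to 11.4 for Atg4c, a protease that trims and releases LC3 and GABARAP proteins. The transcription factor Tfe3, at 4.36 CPM per kb, lay within that span, and Tfeb, at 1.84, lay below it, at the 51.4th percentile of protein-coding genes. When the 49 genes were put in order of level, the range over libraries of each gene overlapped that of the next one, apart from Tfeb (1.42 to 2.40 CPM per kb) and Atg9b (0.194 to 1.12), the lowest tested gene. Neighbours in the order above are therefore not separated by their ranges over libraries. Whether 1 gene lay above the next within each single library was not examined.

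**Figure D1:**
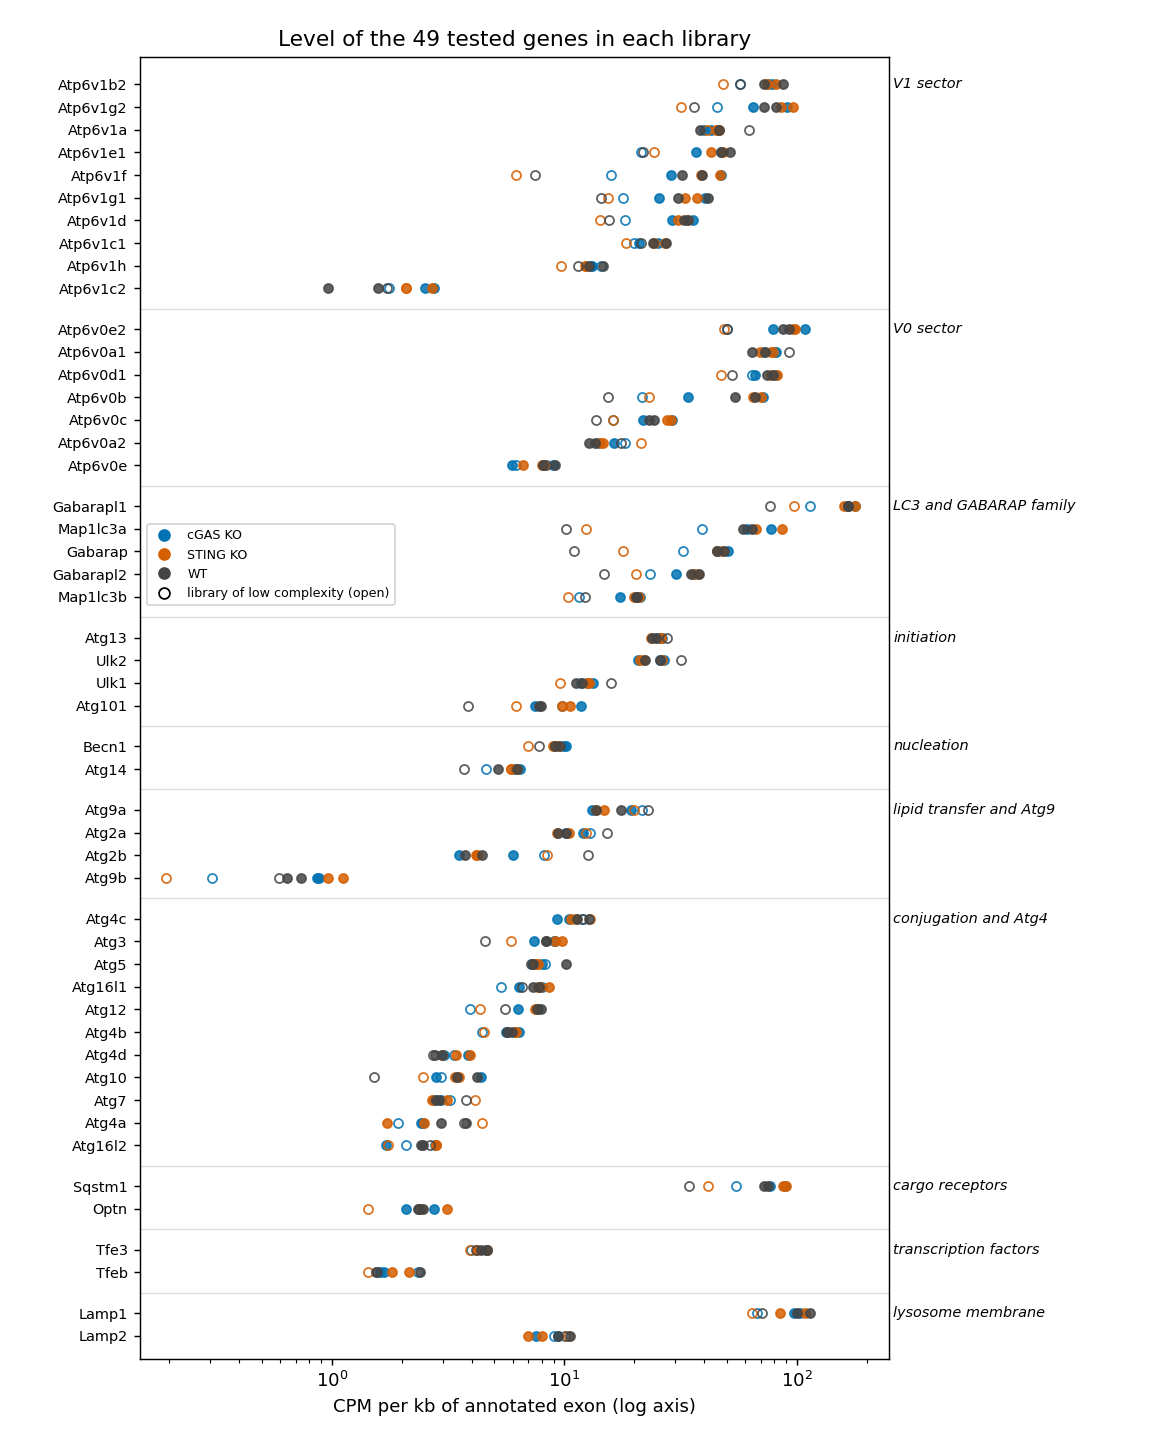
Level of each of the 49 tested genes in each library, in CPM per kb of annotated exon on a log axis, grouped by role and ordered by mean. Each point is 1 library, and open points are the 3 libraries of low complexity. Gabarapl1 (145 CPM per kb) is highest and Atg9b (0.698) lowest, and the open points of the LC3 and GABARAP genes lie left of all filled ones.

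The leading genes of several roles had their 3 lowest values in the libraries of low complexity, and 4 of them are given here. Gabarapl1 was at 358, 230 and 333 CPM in cGAS KO, 360, 196 and 320 CPM in STING KO and 334, 336 and 155 CPM in WT, and 28.3% of its exons lie opposite to 1700101I11Rik. Atp6v0e2 was at 258, 119 and 188 CPM in cGAS KO, 234, 116 and 229 CPM in STING KO and 208, 221 and 120 CPM in WT. For both, replicate 2 of each knockout and WT replicate 3 lay below all other libraries. Atp6v1b2 was at 414, 304 and 399 CPM, 434, 255 and 395 CPM, and 382, 462 and 301 CPM in cGAS KO, STING KO and WT. Sqstm1 was at 299, 183 and 257 CPM, 302, 139 and 292 CPM, and 253, 244 and 116 CPM in the same order. The other 6 libraries of Sqstm1 lay between 244 and 302 CPM, and the groups overlapped.

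Genes differed in how steady they were over libraries. Atg13 was at 115, 114 and 110 CPM in cGAS KO, 114, 113 and 103 CPM in STING KO and 104, 109 and 120 CPM in WT, a coefficient of variation of 5.04% over the 9. Tfe3, the more abundant of the transcription factors here, was at 42.9, 36.9 and 42.5 CPM in cGAS KO, 43.2, 36.2 and 39.1 CPM in STING KO and 40.7, 43.1 and 38.6 CPM in WT, with 6.79%. Both genes had nearly the same level in all 3 groups. The 3 lowest values of Tfe3 were those of the libraries of low complexity, but within a few CPM of the others. At the other end, Atp6v1f, the small subunit F of the central stalk, was at 50.0, 17.0 and 30.5 CPM in cGAS KO, 49.7, 6.61 and 41.0 CPM in STING KO and 41.5, 34.2 and 7.98 CPM in WT, with 54.3%. Its lowest value in each group was the library of low complexity, and without these 3 libraries its coefficient of variation was 19.3%.

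Several pump subunits and autophagy proteins are encoded by paralogues, and 1 paralogue took most of the transcripts in most of 16 families. Shares are given as percent of the family's summed CPM per kb, which does not depend on scaling between libraries. Over the libraries, Atp6v1b2 made up 99.8% to 100% of subunit B. Atp6v1e1 made up 98.9% to 100% of subunit E, and Atp6v0d1 99.6% to 100% of subunit d. Among the subunit a genes of the set, Atp6v0a1 had 82.9% ± 1.08 in cGAS KO, 82.0% ± 2.89 in STING KO and 83.9% ± 1.30 in WT (SD, n = 3). Nearly all the rest was Atp6v0a2, the form of the Golgi and endosomes. Tcirg1, another subunit a gene, is outside the symbol rule and was not counted in these shares. Subunit G was mostly the neuronal form Atp6v1g2, at 70.9% ± 1.28, 70.5% ± 2.77 and 69.2% ± 4.88 in the same order. The groups overlapped in each of these families. In the GABARAP family Gabarapl1 had 67.7% ± 0.848 in cGAS KO, 68.5% ± 3.09 in STING KO and 69.3% ± 4.80 in WT. Atg9a took 93% to 99.0% of the Atg9 pair, and Lamp1 86.1% to 93.1% of the Lamp pair.

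Per kb, the libraries of cGAS KO and WT did not overlap for at least 1 paralogue in 4 of 16 families. These were subunit C, LC3, GABARAP and Atg4. Such separation was found for 1 family in STING KO against WT (subunit C) and 1 in STING KO against cGAS KO (GABARAP). Random labels would separate a single share, in either direction, with a probability of 0.10. Families of more paralogues offer more shares, and no rate over other gene families was computed. The counts are therefore a description. Atp6v1c1, the broadly expressed form, had 91.0%, 91.9% and 88.4% of the family in cGAS KO, 91.0%, 89.9% and 92.1% in STING KO and 93.9%, 96.6% and 92.5% in WT. The remainder was Atp6v1c2, an epithelial form. Every knockout library was below every WT library; the closest were STING KO replicate 3 and WT replicate 3. No p below 0.10 is possible with 3 libraries against 3 in an exact permutation test. Gabarapl2 had 13.6%, 13.8% and 12.5% of its family in cGAS KO, below the 14.3% to 15% of STING KO and the 14.1%, 15.2% and 14.5% of WT. In the Atg4 family, the Atg4a share was lower in every cGAS KO library (8.90% to 11.8%) than in WT (12.2% to 15.7%), and Atg4d had 16.7%, 15.5% and 14.9% in cGAS KO and 12.4%, 11.5% and 11.2% in WT, with 15%, 12% and 17% in STING KO. The Atg4d share was higher in every cGAS KO library than in every WT library, and the STING KO libraries overlapped WT. Without division by length the Atg4d share was above WT in every library of STING KO too (19.0% to 23.4% against 16.8% to 18.2%).

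The order within some families depended on the length used. Map1lc3a had 77.9% ± 0.665 of the LC3 pair in cGAS KO, 70.7% ± 14.2 in STING KO and 65.1% ± 17.1 in WT per kb, but 35.6%, 29.9% and 25.2% when CPM were not divided by length, because the merged exons of Map1lc3b are 7517 bases long and those of Map1lc3a 1181. STING KO replicate 2 (54.4%) and WT replicate 3 (45.4%) were far below the other 7 libraries (74.1% to 80.6%). The cGAS KO libraries, at 77.2% to 78.5%, were all above those of WT, at 45.4% to 75.8%. Of the Atg4 proteases, Atg4c led per kb (48.7%, 49.2% and 49.9% in cGAS KO, STING KO and WT) and Atg4b without division by length (40.5%, 39.3% and 40.5%). In the GABARAP family Gabarap was above Gabarapl2 per kb (17.3% against 14.2% on average over the 9 libraries) and below it without division by length (15.7% against 16.3%). Atg2a led Atg2b in both ways on average, but Atg2b took up to 59.0% in a library without division by length.

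**Figure D2:**
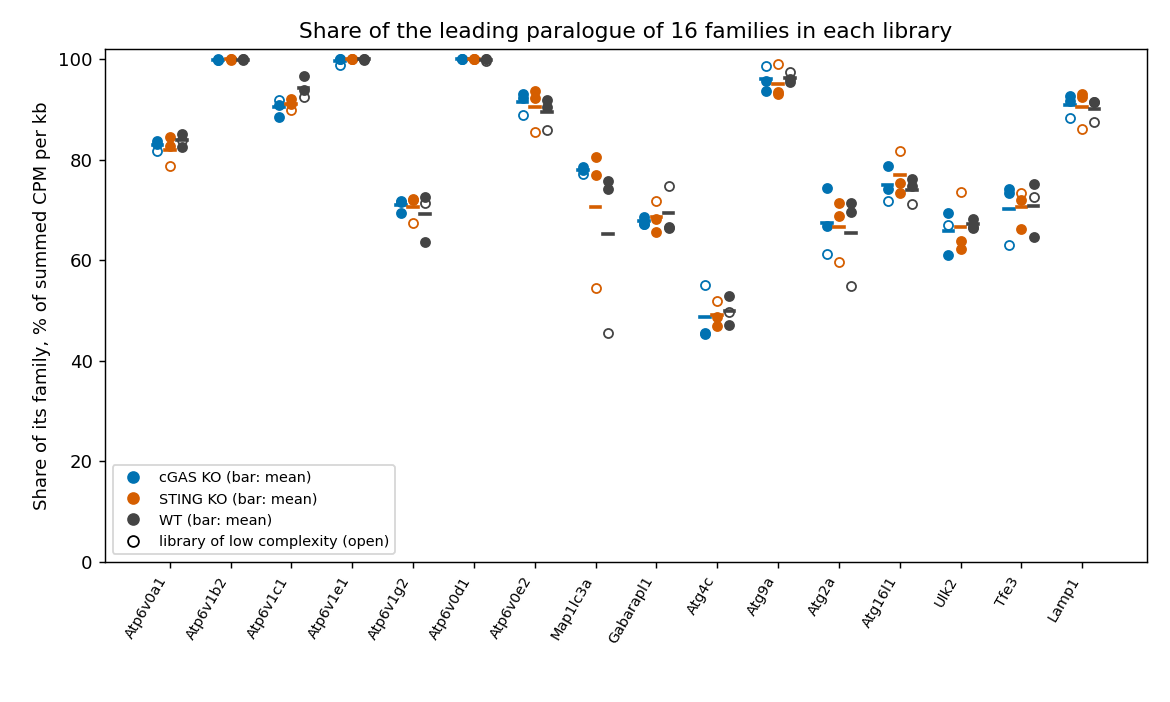
Share of the leading paralogue in the summed CPM per kb of its family, in percent, for 16 families. Each point is 1 library, bars are group means, and open points are libraries of low complexity. Atp6v1c1 lies lower in the 6 knockout libraries than in WT, and Map1lc3a is at 54.4% and 45.4% in 2 open points.

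Loss of cGAS left no gene of the set past the threshold. With edgeR's quasi-likelihood test, 0 of the 49 tested genes had an adjusted p under 0.05 in cGAS KO against WT (0% of all 17821 genes), and 0 of 49 had an unadjusted p under 0.05, against 2.03% of all genes (1.04% higher, 0.982% lower). DESeq2, limma-voom and limma-voom with library quality weights called 0 of them as well. Positive fold changes were found for 27 of 49 genes, against 48.5% of all genes, and the median log2 fold change was 0.01, against -0.01 over all genes. The members' log2 fold changes ranged from -0.62 to 0.72. The number of positive fold changes was 15 without WT replicate 3 and 34 without cGAS KO replicate 2. The libraries of the groups did not overlap for 2 genes higher in cGAS KO (Atp6v1c2 and Atg4d), where 4.01% of all genes did so, and for 1 gene lower (Atg4a), where 3.98% did. By role, 5 of 10 V1 genes and 5 of 7 V0 genes had a positive fold change with all 9 libraries. So did 4 of 5 LC3 and GABARAP genes and 3 of 11 conjugation and Atg4 genes. Without the libraries of low complexity the log2 fold change of Map1lc3a was 0.18. Those of Gabarapl1, Gabarap, Map1lc3b and Gabarapl2 were then 0.05, 0.02, -0.08 and -0.14.

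Atp6v1c2 (ENSMUSG00000020566, chr12:17284721-17329359, minus strand), the minor subunit C gene, had the smallest p in both comparisons with WT. It was at 5.45, 3.84 and 5.95 CPM in cGAS KO, 5.84, 4.52 and 4.52 CPM in STING KO and 3.43, 2.09 and 3.74 CPM in WT. All knockout libraries were above all WT libraries, cGAS KO replicate 2 only narrowly. The log2 fold change was 0.72 (SE 0.34, edgeR unadjusted p = 0.0590, adjusted p = 0.9999) in cGAS KO and 0.68 (SE 0.34, unadjusted p = 0.0702, adjusted p = 0.9999) in STING KO, both against the same WT libraries. Without the libraries of low complexity these values were 1.04 (SE 0.31, unadjusted p = 0.00989, adjusted p = 0.971) and 0.90 (SE 0.31, unadjusted p = 0.0200, adjusted p = 0.679). Leaving out 1 library in turn gave log2 fold changes of 0.49 to 0.89 in cGAS KO and 0.47 to 0.84 in STING KO. The gene had at most 94 counts in a library, and 2.3% of its exons lie opposite to Pdia6. Its abundant paralogue Atp6v1c1 was at 123 ± 15.5, 130 ± 24.7 and 136 ± 16.8 CPM in cGAS KO, STING KO and WT (SD, n = 3).

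Atg101, the small subunit that stabilises Atg13 in the ULK complex, was at 18.8, 15.7 and 12 CPM in cGAS KO, 17.0, 9.88 and 15.6 CPM in STING KO and 12.6, 12.4 and 6.14 CPM in WT. Both knockouts overlapped WT. Its log2 fold change was 0.57 (SE 0.34, edgeR unadjusted p = 0.119) in cGAS KO and 0.44 (SE 0.34, unadjusted p = 0.216) in STING KO, and these were 0.31 and 0.18 without WT replicate 3. Atg4d, a protease of the LC3 and GABARAP proteins, was at 28.1, 24.4 and 22.1 CPM in cGAS KO, 24.8, 21.6 and 28.5 CPM in STING KO and 21.6, 20.2 and 19.7 CPM in WT. The cGAS KO libraries were all above WT, and the lowest STING KO library was level with the highest WT one. Its log2 fold changes against WT were 0.28 (SE 0.18, edgeR unadjusted p = 0.165) and 0.28 (SE 0.18, unadjusted p = 0.155). Of its exons 19.3% lie opposite to Kri1, and whether counting used the strand is unstated in the sources used here.

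Atg4a, another protease of the family, was at 6.55, 5.12 and 6.41 CPM in cGAS KO, 6.64, 11.8 and 4.58 CPM in STING KO and 10.1, 7.83 and 9.88 CPM in WT. The cGAS KO libraries were all below WT, and those of STING KO spanned the whole range. Its log2 fold change was -0.62 (SE 0.35, edgeR unadjusted p = 0.108) in cGAS KO and -0.27 (SE 0.35, unadjusted p = 0.452) in STING KO, and the latter was -0.68 (SE 0.26, unadjusted p = 0.0307, adjusted p = 0.697) without the libraries of low complexity. Reads shared with the copy Atg4a-ps could not be resolved. Atp6v0e, a small membrane subunit, was at 33.3, 23.1 and 22.1 CPM in cGAS KO, 24.8, 30.4 and 29.9 CPM in STING KO and 34.0, 30.1 and 30.9 CPM in WT. The cGAS KO group was split, with replicate 1 inside the WT range and the others below it. Against WT its log2 fold change in cGAS KO was -0.28 (SE 0.20, edgeR unadjusted p = 0.206).

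Loss of STING left no gene of the set past the threshold either. In STING KO against WT edgeR called 0 of 49 genes (0% of all genes), and 0 of 49 had an unadjusted p under 0.05, against 1.63% of all genes (0.898% higher, 0.735% lower). DESeq2 and both forms of limma-voom called 0. Positive fold changes were found for 21 of 49 genes, against 49.4% of all genes, with a median log2 fold change of -0.03, against -0.004 over all genes and a range from -0.31 to 0.68. That number was 11 without STING KO replicate 1 and 33 without STING KO replicate 2. The groups were separated for 1 gene higher in STING KO (Atp6v1c2), where 3.41% of all genes were, and for 0 genes lower, where 3.68% were. By role, 3 of 10 V1 genes and 5 of 7 V0 genes had a positive fold change with all 9 libraries. So did 4 of 5 LC3 and GABARAP genes and 5 of 11 conjugation and Atg4 genes. Without the libraries of low complexity the log2 fold change of Map1lc3a was 0.31. Those of Gabarapl1, Gabarapl2, Map1lc3b and Gabarap were then 0.02, 0.0002, -0.01 and -0.02.

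Lamp2 was at 72.5, 86.0 and 90.1 CPM in cGAS KO, 66.4, 99.2 and 76.4 CPM in STING KO and 102, 90.0 and 96.5 CPM in WT. The highest STING KO library, replicate 2 of low complexity, lay inside the WT range, and the other 2 were below it. Its log2 fold change against WT was -0.25 (SE 0.18, edgeR unadjusted p = 0.204) in STING KO and -0.21 (SE 0.18, unadjusted p = 0.277) in cGAS KO, and without the libraries of low complexity it was -0.43 (SE 0.15, unadjusted p = 0.0241, adjusted p = 0.697) in STING KO. Leaving out 1 library in turn gave -0.42 to -0.13 for Lamp2 in STING KO against WT. With the 3 libraries of low complexity left out, 3 of the 49 genes had an edgeR unadjusted p under 0.05 in STING KO against WT. These were Atp6v1c2, Atg4a and Lamp2, where 6.9% of all genes had one. In cGAS KO against WT 1 gene had one (Atp6v1c2), where 4.2% of all genes did.

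Ulk2, a kinase of the initiation complex, was at 124, 154 and 160 CPM in cGAS KO, 126, 158 and 132 CPM in STING KO and 133, 154 and 190 CPM in WT. The groups overlapped, and STING KO differed from WT by a log2 fold change of -0.20 (SE 0.19, edgeR unadjusted p = 0.333). It was -0.05 without WT replicate 3, -0.13 without STING KO replicate 1, -0.29 without STING KO replicate 2 and -0.30 without WT replicate 1. Among the transcription factors, Tfe3 had a log2 fold change of -0.0005 (SE 0.15, 95% interval -0.35 to 0.35) in cGAS KO and -0.05 (SE 0.15, 95% interval -0.39 to 0.30) in STING KO against WT. Tfeb was at 9.50, 13.3 and 9.10 CPM in cGAS KO, 10.2, 8.07 and 12.2 CPM in STING KO and 13.6, 8.74 and 8.89 CPM in WT. Each group covered nearly the same range, and the log2 fold changes were 0.02 (SE 0.28) and -0.03 (SE 0.28), and -0.27 (SE 0.25) and 0.004 (SE 0.25) without the libraries of low complexity.

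Between the 2 knockouts no gene of the set passed. In STING KO against cGAS KO edgeR called 0 of 49 genes (0% of all genes), 0 of 49 had an unadjusted p under 0.05, against 1.45% of all genes (0.825% higher, 0.623% lower), and DESeq2 and both forms of limma-voom called 0. Positive fold changes numbered 22 of 49, against 51.1% of all genes, with a median of -0.03 against 0.01 over all genes and a range from -0.24 to 0.35. They numbered 11 without cGAS KO replicate 2, 13 without STING KO replicate 1, 36 without STING KO replicate 2 and 33 without cGAS KO replicate 1, so no direction can be read from the count. The groups were separated for 0 genes higher in STING KO (3.62% of all genes) and 1 gene lower (3.72% of all genes), Atp6v1h.

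Atp6v1h encodes subunit H, which regulates the coupling of V1 to V0. It was at 129, 141 and 127 CPM in cGAS KO, 121, 94.0 and 120 CPM in STING KO and 124, 143 and 111 CPM in WT. The STING KO libraries were all below those of cGAS KO, and WT spanned both. The log2 fold change in STING KO was -0.24 (SE 0.17, edgeR unadjusted p = 0.183) against cGAS KO and -0.18 (SE 0.17, unadjusted p = 0.325) against WT. Without STING KO replicate 2 these were -0.13 and -0.06, the value against WT was -0.08 without WT replicate 2, and that against cGAS KO was -0.09 without the libraries of low complexity. Atg16l1, the scaffold that directs LC3 conjugation to membranes, was at 77.4, 51.2 and 61.2 CPM in cGAS KO, 83.1, 75.8 and 74.2 CPM in STING KO and 74.6, 70.3 and 63.2 CPM in WT. The lowest values were in cGAS KO and the groups overlapped, with a log2 fold change of 0.30 (SE 0.18, edgeR unadjusted p = 0.132) in STING KO against cGAS KO, which was 0.16 without cGAS KO replicate 2 and 0.47 without cGAS KO replicate 1.

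Becn1 was at 71.8, 64.0 and 70.7 CPM in cGAS KO, 66.1, 49.5 and 62.9 CPM in STING KO and 67.8, 64.4 and 55.1 CPM in WT. Its lowest values were in STING KO and WT libraries of low complexity. The log2 fold change in STING KO against cGAS KO was -0.21 (SE 0.17, edgeR unadjusted p = 0.240) and -0.09 without STING KO replicate 2, and 43.9% of its annotated exons lie opposite to Cntd1. Atg9a was at 76.2, 124 and 111 CPM in cGAS KO, 85.6, 115 and 78.9 CPM in STING KO and 78.5, 101 and 132 CPM in WT. Here the library of low complexity was the highest of its group each time, and the log2 fold change was -0.16 (SE 0.26, edgeR unadjusted p = 0.555), with -0.02 without cGAS KO replicate 2 and -0.34 without cGAS KO replicate 1, while 31.8% of its exons are shared with Gm29253 on the same strand. Atg4c was at 35.2, 39.9 and 31.1 CPM, 35.7, 43.1 and 37.6 CPM, and 38.0, 42.7 and 40.3 CPM in cGAS KO, STING KO and WT. Its groups overlapped, with a log2 fold change of 0.13 (SE 0.17, edgeR unadjusted p = 0.444), which was 0.05 without either cGAS KO replicate 3 or STING KO replicate 2 and 0.22 without cGAS KO replicate 2.

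A p above the threshold does not show that the levels were equal, so the intervals are given. The 95% interval of the fold change lay within 2-fold in either direction for 35 of 49 genes with cGAS KO and WT, 37 with STING KO and WT and 39 with the 2 knockouts. The narrowest was that of Atg13, at -0.30 to 0.34 in cGAS KO against WT on the log2 scale. The widest were those of Atp6v1f (-1.45 to 1.88) and Map1lc3a (-1.22 to 2.06), so changes of 2-fold in these genes were not detectable. Without the libraries of low complexity the median SE went from 0.27 to 0.16 in each comparison, and the intervals of 47, 46 and 48 of 49 genes lay within 2-fold. Positive fold changes then numbered 24, 29 and 28 of 49, where 49.6%, 50.2% and 50.8% of all genes had one. The groups, now of 2 libraries each, did not overlap for 8 genes higher and 3 lower in cGAS KO against WT (14.5% and 14.9% of all genes), for 14 higher and 6 lower when STING KO was set against WT (24.3% and 23.2%), and for 6 higher and 2 lower when STING KO was set beside cGAS KO (16.5% and 15.4%).

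**Figure D3:**
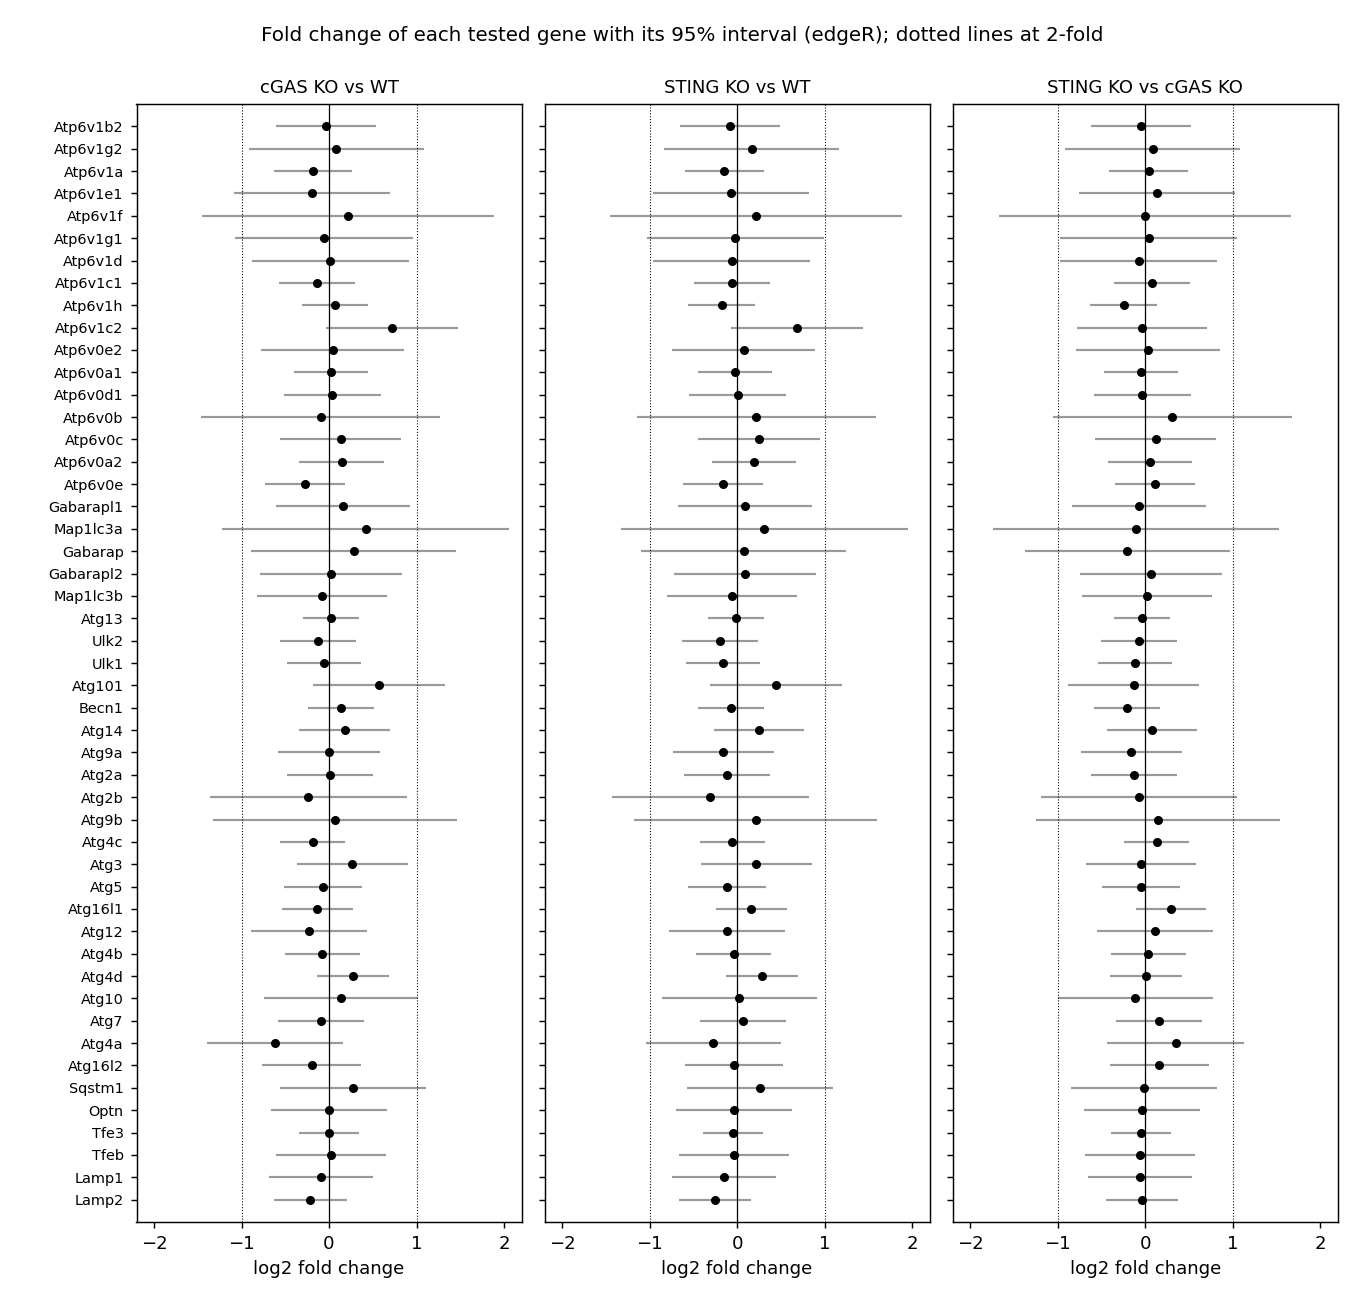
Log2 fold change (points) with its 95% interval (lines) for each of the 49 tested genes in the 3 comparisons, from edgeR with all 9 libraries. Dotted lines mark 2-fold changes. Every interval includes 0, and Atp6v1c2 has the largest fold change in both comparisons with WT (0.72 and 0.68).

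Genes with the core CACGTG in their promoter had fold changes of either sign. Of the 9 such genes, including Lamp1, Atp6v0b, Atp6v0d1 and Atg3 shown above, 3 had a positive fold change with cGAS KO against WT, 5 with STING KO against WT and 5 with STING KO against cGAS KO, with medians of -0.09, 0.01 and 0.04. Of the 31 tested genes with a window and no core, 20, 13 and 12 had a positive fold change, with medians of 0.02, -0.03 and -0.04. Lamp1 was at 260, 181 and 277 CPM in cGAS KO, 227, 172 and 290 CPM in STING KO and 306, 269 and 190 CPM in WT. The lowest value of each group was again the library of low complexity.

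Other genes of these pathways were counted from 4 further lists. Of 42 lysosomal hydrolase genes, 42 were tested, of 17 genes of pump assembly 14, of 36 further autophagy genes 35, and of 29 genes of nutrient sensing at the lysosome 28, and 0 of each passed in any comparison by edgeR. Unadjusted p-values under 0.05 were found for 3 of 357 pairs of gene and comparison (0.840%), a smaller share than the 1.45% to 2.03% of all genes given above. Gaa, the lysosomal enzyme that breaks down glycogen, was at 421, 359 and 459 CPM in cGAS KO and 332, 325 and 257 CPM in WT, with no overlap, as for 4.01% of all genes (log2 fold change 0.44, SE 0.19, edgeR unadjusted p = 0.0420, adjusted p = 0.9999). Tcirg1, the subunit a that the symbol rule leaves out, was at 20.6, 20.0 and 19.1 CPM in STING KO and 16.2, 12.8 and 11.6 CPM in WT, with no overlap, as for 3.41% of all genes (0.55, SE 0.22, edgeR unadjusted p = 0.0308, adjusted p = 0.9999). Mitf, a relative of Tfeb, was at 10.9, 16.3 and 11.2 CPM in STING KO and 17.7, 15.7 and 23.4 CPM in WT, with overlap (-0.57, SE 0.24, edgeR unadjusted p = 0.0428, adjusted p = 0.9999).

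In both comparisons with WT, fewer genes of each list had a positive than a negative fold change. Both use the same WT libraries, and these counts were not repeated with single libraries left out. For the 49 genes of the set, leaving out 1 library gave 15 to 34 positive fold changes in cGAS KO against WT. In STING KO against WT it gave 11 to 33. In cGAS KO against WT, where 48.5% of all genes had a positive one, so did 18 of 42 hydrolases, 2 of 14 assembly genes, 17 of 35 autophagy genes and 10 of 28 nutrient sensing genes. Their median log2 fold changes were -0.03, -0.09, -0.02 and -0.06. In STING KO against WT, with 49.4% of all genes, the numbers were 17, 3, 12 and 8, and the median log2 fold changes were -0.06, -0.15, -0.05 and -0.07. Dmxl2, a regulator of pump assembly at synaptic vesicles, was at 172, 245 and 197 CPM in cGAS KO, 199, 282 and 210 CPM in STING KO and 172, 229 and 501 CPM in WT. Oxr1, a gene of the TLDc family that acts on pump assembly, was at 95.5, 95.9 and 77.8 CPM in cGAS KO and 84.5, 125 and 205 CPM in WT. For both, WT replicate 3 stood far above the others, and cGAS KO differed from WT by log2 fold changes of -0.56 (SE 0.37, edgeR unadjusted p = 0.162) and -0.62 (SE 0.30, unadjusted p = 0.0685). The value of Oxr1 was -0.23 without WT replicate 3. Of the 42 hydrolases, 6 were lower in every STING KO library than in every WT library, where 3.68% of all genes were. Among them were Ctsc, the cathepsin C gene, and Asah1. Asah1, the acid ceramidase, was at 47.4, 44.9 and 44.4 CPM in STING KO and 57.3, 59.4 and 52.1 CPM in WT, with a log2 fold change of -0.30 (SE 0.16, edgeR unadjusted p = 0.0810). Psap, the precursor of the saposins that help lysosomal lipid breakdown, was at 1047 to 1229 CPM in the 6 other libraries and 669 to 682 CPM in those of low complexity.

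The largest differences of the set lay between libraries within groups. Of the 49 genes, 20 were lower in all 3 libraries of low complexity than in all of the other 6, where 16.6% of all genes tested were, and 5 were higher in all 3 (Atp6v0a2, Atg7, Atg2a, Atg2b and Atg9a), where 14.2% of all genes were. These libraries were picked by a property of the data, so the split is described and not tested. All 5 LC3 and GABARAP genes were among the lower ones, with a summed level of 477, 369 and 313 CPM in the cGAS KO, STING KO and WT library of that kind and 690 to 791 CPM in the other 6. So were 6 of 10 V1 genes, 4 of 7 V0 genes, Sqstm1, Lamp1, Tfe3, Atg12 and Atg9b, and none of the initiation or nucleation genes.

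Map1lc3a, which encodes LC3A, was at 91.9, 46.1 and 72.5 CPM in cGAS KO, 102, 14.6 and 78.5 CPM in STING KO and 75.6, 69.5 and 12 CPM in WT. The libraries of low complexity were lowest in each group and lay clear of the rest. Gabarap was at 93.2, 59.8 and 83.4 CPM, 83.9, 33.1 and 87.8 CPM, and 89.8, 83.9 and 20.3 CPM in the same order, and its coefficient of variation went from 38.0% to 4.55% without those 3 libraries. Atp6v0b, a proteolipid of the rotating ring, was at 147, 44.3 and 69.8 CPM, 144, 47.4 and 133 CPM, and 136, 111 and 31.5 CPM. For Atp6v0b, cGAS KO replicate 3 also lay well below the remaining libraries. Atg2b went the other way, at 47.3, 110 and 80.5 CPM, 56.2, 113 and 56.8 CPM, and 50.4, 59.6 and 170 CPM. Its 3 highest values were those of the libraries of low complexity. The log2 fold change of Atg2b in cGAS KO against WT was -0.24 with all libraries and 0.22 without those of low complexity.

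The genes that were lower had shorter annotated exons than those that were higher, with a median merged exon length of 2592.5 against 6968 bases, and Atp6v1f (1063 bases) and Atg2b (13456 bases) mark the ends. Within each of the 3 libraries, the difference from the other libraries of its group was correlated over the 49 genes with log2 exon length, with Pearson's r of 0.51 in cGAS KO replicate 2, 0.58 in STING KO replicate 2 and 0.72 in WT replicate 3. Over 17813 tested genes it was 0.22, 0.22 and 0.27. Points of a library share its RNA and depth, and genes are not independent replicates. Summed markers of microglia and macrophages were also lower in these libraries (180 to 230 against 250 to 354 CPM). Those of endothelium (148 to 172 against 169 to 207 CPM) and astrocytes (758 to 960 against 942 to 1137 CPM) overlapped narrowly. Those of medium spiny neurons overlapped too (4953 to 8630 against 8340 to 10207 CPM), with WT replicate 3 below all others. Those of oligodendrocytes and cortical neurons overlapped widely. The part of these values in the differences was not tested.

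**Figure D4:**
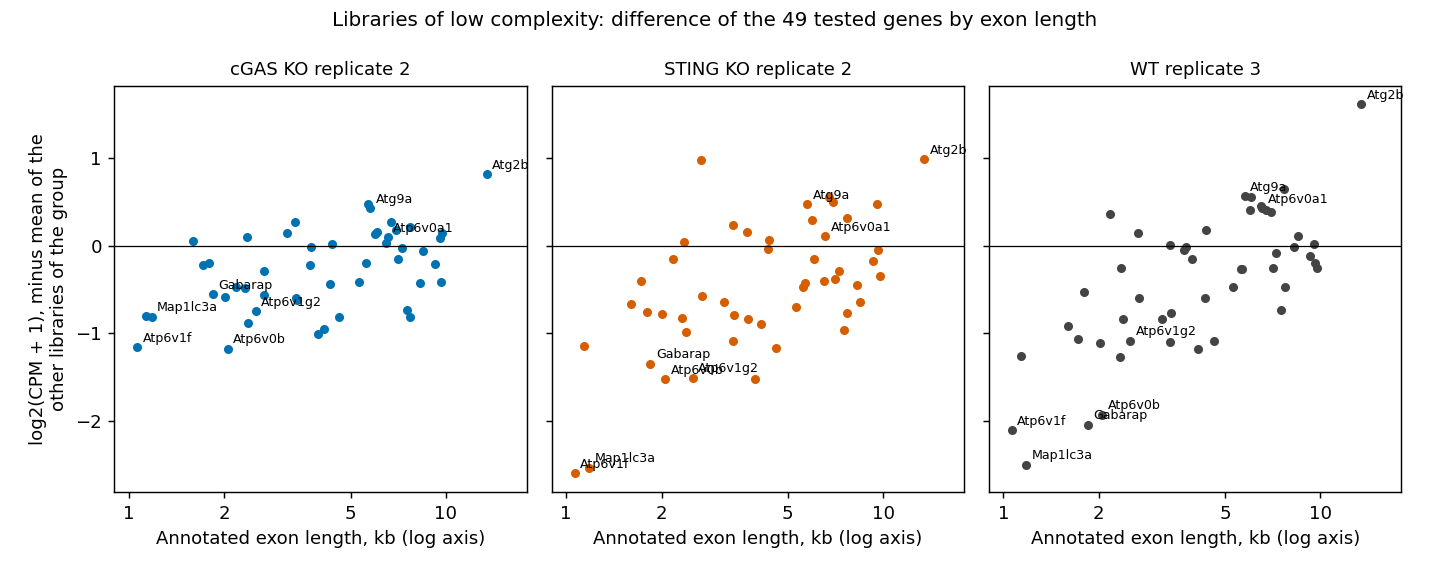
Difference of each of the 49 tested genes in a library of low complexity from the mean of the other 2 libraries of its group, in log2(CPM + 1), against merged exon length in kb on a log axis. Each point is 1 gene. Short genes such as Atp6v1f and Map1lc3a lie lowest and Atg2b highest in STING KO replicate 2 and WT replicate 3, with r of 0.51, 0.58 and 0.72 from left to right.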

How the data were processed

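Polyadenylated RNA of 9 striatum libraries was sequenced as paired reads, per the labels' protocols. HISAT2, featureCounts and the build mm10 come from the submitters' processing notes. Tool versions, annotation, strand setting and handling of multi-mapped reads: not given in the sources used here. The authors deposited whole-number counts of reads per gene without normalization. Of 54532 Ensembl IDs, 54495 matched GENCODE M21 on GRCm38, and the 37 others held at most 0.0361% of a library. Totals were 14129021 to 21286775 counts.

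Counts were tested with edgeR 4.0.16 (R 4.3.3) by the quasi-likelihood test, with 9 libraries in 1 fit, TMM factors and filterByExpr, which left 17821 genes. P-values were adjusted over these genes by Benjamini-Hochberg, with a threshold of 0.05. An SE was taken from the fold change and its F statistic. Alternatives were DESeq2 1.42.0, limma-voom 3.58.1 with and without quality weights, other scalings and filters, 6 libraries only, a replicate block, leaving out libraries, and low complexity as a covariate. The method was tested on simulated counts that held no libraries of low complexity, so its behaviour with such libraries was not tested. No pair of libraries of a group agreed within sampling noise. The members, lists and alternatives were chosen with earlier results of these data known. Genes named were, in each comparison, the 3 with the smallest p in each direction, the most abundant of each role per kb, and for each further list the most abundant and that with the smallest p. Others named were chosen after their values were seen, and not all genes under the rule are printed for the further lists.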

Additional observations from a re-analysis of the deposited data

How the results depend on the processing

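Across 19 alternative settings, 0 of the genes described were called in any comparison, and the lowest adjusted p of any was 0.0561, for Atp6v1c2 in STING KO against WT with limma-voom and quality weights, which gave 10, 7 and 9 of them an unadjusted p under 0.05 in the 3 comparisons where 21.7%, 19.7% and 27.2% of all genes had one. Over all genes, edgeR called 0 in each comparison. In the order cGAS KO against WT, STING KO against WT and STING KO against cGAS KO, DESeq2 called 1, 10 and 8 genes, and limma-voom with quality weights 4, 178 and 29. In the last 2 comparisons edgeR called 4 and 4 without a count filter, 4 and 3 without the 3 libraries of low complexity, and 1 and 1 with low complexity as a covariate. Leaving out each library in turn gave 0 in every comparison. With the replicate number as a replicate block, 0 genes were called in all 3 comparisons. Deviations of same-numbered libraries correlated between -0.57 and 0.61, and those of number 1 were positive in all 3 comparisons. The labels name no shared batch or day, so the numbers were not taken as pairs. Of 30 named fold changes, that of Atg4a in STING KO against cGAS KO, 0.35 by edgeR with all libraries, changed sign. It was -0.23 with quality weights, -0.21 without the libraries of low complexity and -0.10 without STING KO replicate 2. The cause was not tested. Of 240 alternative paralogue shares 37 moved by more than the spread between replicates, 28 of them where CPM were not divided by length. The biological coefficient of variation, 38.8% with all libraries and 17.2% without those of low complexity, limits what could be detected.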
